A study of Homo sapiens with 6 samples.

Results

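The cadherin and protocadherin superfamily was examined in T98G cells, an established human glioblastoma line, from which CBX8 had been knocked out with a CRISPR guide (CBX8 KO). Members were the gene symbols of the count table that match the names of the numbered cadherins (CDH), protocadherins (PCDH), desmocollins and desmogleins (DSC, DSG), FAT and dachsous (DCHS) cadherins and CELSR cadherins. The names gave 113 of the 57133 symbols, 56 of them clustered protocadherins and 57 other members, including 8 pseudogenes and antisense RNAs that the names also take in. The KO cells carried either the empty TetOFUW vector (CBX8 KO, 3 libraries) or the vector with V5-tagged wild-type CBX8 (WT CBX8 re-expression, 3 libraries). Both lines carried the rtTA transactivator, and doxycycline was given at 1 μg/ml for 72 h in all 6 libraries. The comparison asks how the transcripts of these adhesion genes differ when CBX8 is re-expressed. CBX8 itself, the targeted gene, had 83 to 104 counts in the KO libraries and 27791 to 31408 counts upon re-expression, which matches the titles of the re-expression libraries, although their genotype label reads wild type. No parental T98G library was analysed here, so these counts do not check the knockout itself. Nor do they show whether re-expressed CBX8 was near or far above its endogenous level. Each line is 1 transduced and drug-selected population, and the effect of CBX8 cannot be told apart from other differences between these 2 populations.

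CBX8 is a subunit of Polycomb repressive complex 1, which binds chromatin carrying the H3K27me3 mark and keeps developmental genes silent. In vertebrates Polycomb complexes are found mainly at promoters rich in CpG dinucleotides. Cadherins are calcium-dependent adhesion proteins whose extracellular repeats bind the same or a related cadherin on the next cell. Classical cadherins connect to actin through catenins, desmosomal cadherins connect to intermediate filaments, and FAT, DCHS and CELSR cadherins orient cells within a tissue. The clustered protocadherins lie in the alpha, beta and gamma arrays, where each gene has its own promoter, and the alpha and gamma genes splice their own first exon to constant exons used by the whole array. In the nervous system, different combinations of clustered protocadherins give neurons distinct surface identities.

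Total counts per library lay between 7950190 and 8659796, and genes were tested in 1 fit over the 14461 genes that passed a filter on low counts. Levels are counts per 1000000 counts (CPM) after TMM scaling. FDR is the p-value of edgeR's quasi-likelihood test after Benjamini-Hochberg adjustment over these genes, a fold change is re-expression against KO, and SE is the standard error of its log2 value. The labels do not say whether libraries of a condition came from separate cultures, so n counts libraries. Each p-value and SE rests on the spread between libraries, which edgeR moderates by pooling over genes. Neither is the spread of that gene alone, which the SD of its CPM gives for each condition. T98G markers were present, with VIM at 21563 to 24449 counts and CD44 at 20126 to 24273 counts per library, whereas the stem cell marker SOX2 had no count and NES had at most 4. The neuron list summed to 36.0 to 37.9 CPM in CBX8 KO and 36.9 to 39.1 CPM upon re-expression, with STMN2, ELAVL4, DCX and NEFL at 0. The epithelial list summed to 2.27 to 2.61 CPM and 1.71 to 3.69 CPM, the endothelial list to 2.40 to 4.61 and 3.17 to 4.11 CPM, and the immune list to 4.80 to 7.55 and 6.11 to 7.38 CPM, so the 2 conditions overlapped for all 4 lists. The oligodendrocyte list was higher upon re-expression, at 3.64 to 5.83 CPM against 2.02 to 2.40 CPM. The astrocyte list was lower in sum, at 18.1 to 23.3 CPM against 25.5 to 28.3 CPM. Most of the astrocyte sum was SLC1A3, which fell from 24.6 ± 1.5 to 18.1 ± 3.0 CPM (mean ± SD, n = 3). GFAP, the other astrocyte gene tested, went the other way, from 1.82 ± 0.28 to 2.92 ± 0.60 CPM (edgeR FDR 0.13). The part of these 2 lists in the results was not tested. Of the 21 marker genes tested, 3 were called higher (TNC, FN1 and TUBB3) and 4 lower (CD44, SOX9, SLC1A3 and MAP2). Over all tested genes 6.23% were called higher and 6.63% lower, and the difference from these shares was not tested. In these bulk libraries, fewer cells with a transcript and less of it per cell cannot be told apart.

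Of the 113 members, 32 passed the filter and 12 of these changed upon WT CBX8 re-expression at FDR < 0.05 in edgeR's quasi-likelihood test. CELSR1, CELSR2, CELSR3, FAT1, FAT4, PCDH1, CDH4 and CDH15 were higher, and CDH6, CDH11, PCDH18 and PCDHGC3 were lower. The 12 are 37.5% of the members tested, where 12.9% of all tested genes were called. In the separate directions, 25% of the tested members were higher, against 6.23% of all tested genes, and 12.5% were lower, against 6.63%. The median log2 fold change of the 32 members was 0.22, beside 0.0049 over all tested genes. The calls were unevenly spread, with 11 among the 18 tested members outside the clusters and 1 among the 14 tested clustered protocadherins, and no test was made of that difference. The median log2 fold change was 0.17 for the 18, with 13 above 0, and 0.24 for the 14, with 10 above 0. Libraries of the 2 conditions did not overlap for 17 of the 32 members, against 28.9% of all tested genes. With library size alone as the scaling, the higher share of all calls moved from 48.4% to 70.3%, while the members gave 9 higher and 4 lower.

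**Figure D1:**
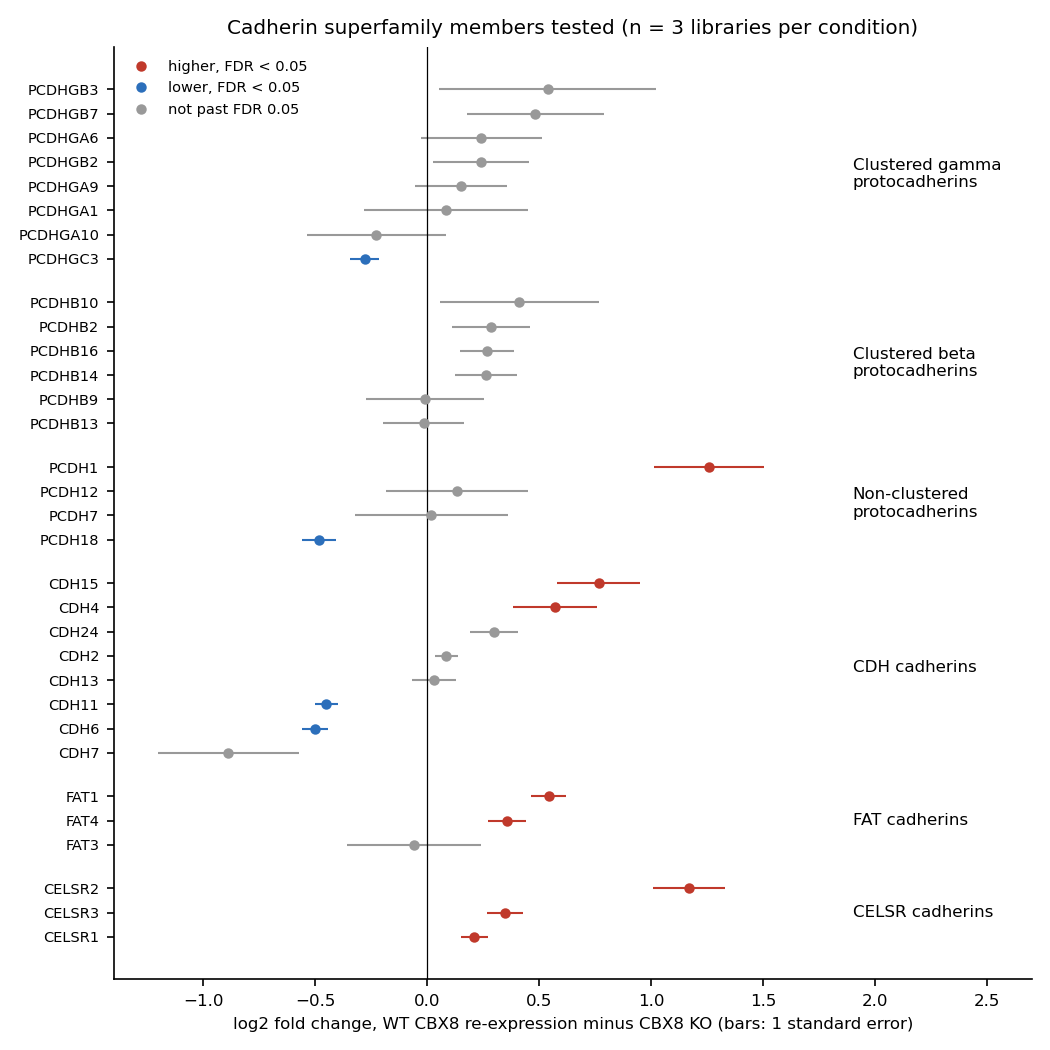
The log2 fold change of each of the 32 tested members (WT CBX8 re-expression minus CBX8 KO, x axis) is plotted with 1 standard error, grouped by subfamily. The 3 CELSR genes and FAT1 and FAT4 lie to the right of 0, CDH6, CDH11 and PCDH18 to the left, and among clustered protocadherins only the point of PCDHGC3 is coloured as past FDR 0.05.

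All 3 CELSR genes rose. CELSR proteins are the vertebrate forms of Flamingo, cadherins with a seven-pass membrane domain that act in planar cell polarity. CELSR2 (ENSG00000143126.8, plus strand of chromosome 1, 109249539 to 109275751) had 33, 41 and 38 counts in CBX8 KO and 81, 92 and 95 counts upon re-expression. Every re-expression library lay far above every KO library, and the level went from 4.63 ± 0.41 to 10.4 ± 0.90 CPM (mean ± SD, n = 3). Its log2 fold change was 1.17 (SE 0.16, edgeR FDR 7.9e-06), a 2.25-fold rise.

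CELSR3 (ENSG00000008300.17, minus strand of chromosome 3, 48636463 to 48662886) had 263, 282 and 296 counts in CBX8 KO and 373, 401 and 364 counts upon re-expression. The conditions did not overlap, and the level rose from 34.9 ± 2.6 to 44.3 ± 1.3 CPM (mean ± SD, n = 3), a log2 fold change of 0.35 (SE 0.08, edgeR FDR 0.0039). CELSR1 (ENSG00000075275.18, minus strand of chromosome 22, 46360834 to 46537620) had 513, 537 and 508 counts in CBX8 KO and 618, 632 and 663 counts upon re-expression. It showed the smallest change of the 3, from 64.5 ± 0.64 to 74.6 ± 3.8 CPM (mean ± SD, n = 3), although its KO libraries were nearly alike and all below the re-expression libraries. CELSR1 had a log2 fold change of 0.21 (SE 0.06, edgeR FDR 0.021). This call was lost with DESeq2 and without CBX8 KO replicate 2 or WT CBX8 re-expression replicate 3, with FDR between 0.00335 and 0.12 across the 16 alternatives.

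FAT1 and FAT4 rose, and FAT3 did not pass the threshold. FAT cadherins are giant proteins with many cadherin repeats, and FAT1 regulates the actin cytoskeleton and Hippo signalling. FAT1 (ENSG00000083857.15, minus strand of chromosome 4, 186587794 to 186726722) had 2117, 2035 and 2097 counts in CBX8 KO and 2675, 3252 and 3741 counts upon re-expression. The KO libraries were close together, whereas the re-expression libraries spread from 314 to 445 CPM and still all lay above 268 CPM, the highest KO library. FAT1 rose from 259 ± 15 to 377 ± 66 CPM (mean ± SD, n = 3), with a log2 fold change of 0.54 (SE 0.08, edgeR FDR 1.5e-05).

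FAT4 (ENSG00000196159.14, plus strand of chromosome 4, 125314918 to 125492932), the receptor for the ligand DCHS1, had 464, 536 and 514 counts in CBX8 KO and 559, 722 and 777 counts upon re-expression. After scaling, the lowest re-expression library, at 65.7 CPM, lay just under the highest KO library, at 65.8 CPM, so the conditions touched. FAT4 had a log2 fold change of 0.36 (SE 0.08, edgeR FDR 0.0048). The threshold was missed with DESeq2 (FDR 0.17) or without WT CBX8 re-expression replicate 3 (FDR 0.058), and its FDR lay between 1.45e-05 and 0.17 across the 16 alternatives. FAT3, at 12 to 22 counts per library, had a log2 fold change of -0.06 (SE 0.30, edgeR FDR 0.93). The dachsous ligands were nearly silent, with 6 counts over the 6 libraries for DCHS1 and 7 for DCHS2, and FAT2 had 21.

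Among the 23 CDH genes, 8 were tested, 2 rose and 2 fell. The 2 that fell, CDH6 and CDH11, were also the highest in CPM of the 8 in CBX8 KO. Both are type II classical cadherins, CDH6 first known as K-cadherin of the kidney and CDH11 as OB-cadherin of osteoblasts and other mesenchymal cells. CDH6 (ENSG00000113361.13, plus strand of chromosome 5, 31193686 to 31329146) had 1968, 1918 and 1699 counts in CBX8 KO and 1280, 1447 and 1466 counts upon re-expression. It fell from 231 ± 16 to 163 ± 12 CPM (mean ± SD, n = 3), with every re-expression library below every KO library. Its log2 fold change was -0.50 (SE 0.06, edgeR FDR 5.4e-07).

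CDH11 (ENSG00000140937.14, minus strand of chromosome 16, 64943753 to 65126112) had 1489, 1567 and 1417 counts in CBX8 KO and 1147, 1150 and 1179 counts upon re-expression. Both groups were tight and well apart, at 185 ± 3.4 and 136 ± 4.5 CPM (mean ± SD, n = 3). CDH11 had a log2 fold change of -0.45 (SE 0.05, edgeR FDR 2.9e-07). Of the exon bases of CDH6 90.1% and of CDH11 98.1% are not shared with another annotated gene, and the strand setting of the counting is not given in the sources used here.

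CDH2 (N-cadherin, ENSG00000170558.10, chromosome 18 from 27932879 to 28177946, minus strand), the classical cadherin of neural and mesenchymal cells, was of similar abundance and did not pass the threshold. It had 1019, 1098 and 998 counts in CBX8 KO and 1160, 1230 and 1120 counts upon re-expression. The re-expression libraries lay slightly above the KO libraries, at 137 ± 3.6 against 129 ± 1.4 CPM (mean ± SD, n = 3), a log2 fold change of 0.08 (SE 0.05, edgeR FDR 0.31). CDH1 (E-cadherin), the classical cadherin of epithelia, had no count in CBX8 KO and 4, 2 and 1 counts upon re-expression, too few to be tested. A count of 0 in a KO library allows up to 3 counts, or 0.356 to 0.383 CPM, by counting error alone, and the mean of the re-expression libraries is below 3 counts, so no fold is given.

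The 2 CDH genes that rose were of low abundance. CDH15 (M-cadherin of muscle, ENSG00000129910.8, chromosome 16 from 89171748 to 89195492, plus strand) had 34, 39 and 38 counts in CBX8 KO and 58, 85 and 58 counts upon re-expression. The conditions did not overlap, and replicate 2 of the re-expression libraries stood above the other two. CDH15 had a log2 fold change of 0.77 (SE 0.18, edgeR FDR 0.0056), and without WT CBX8 re-expression replicate 2 it was 0.58 with an FDR of 0.076. CDH4 (R-cadherin of the retina, ENSG00000179242.16, chromosome 20 from 61252261 to 61940617, plus strand) had 39, 32 and 46 counts in CBX8 KO and 64, 68 and 53 counts upon re-expression. CDH4 had a log2 fold change of 0.57 (SE 0.19, edgeR FDR 0.042). The call of CDH4 was lost in 6 of 16 alternatives, namely DESeq2 (FDR 0.18), the replicate block and the fits that left out replicate 1 or 2 of either condition, with FDR between 0.022 and 0.24 across the 16 alternatives.

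The other tested CDH genes did not pass the threshold. CDH7, a type II cadherin, had 20, 17 and 19 counts in CBX8 KO and 11, 11 and 10 counts upon re-expression. Its groups did not overlap, with a log2 fold change of -0.89 (SE 0.32, edgeR FDR 0.065). CDH24, another type II cadherin, had at most 163 counts per library in CBX8 KO and 188 to 203 counts, which do not overlap, a log2 fold change of 0.30 (SE 0.11, edgeR FDR 0.073). CDH24 passed 0.05 with library size alone as the scaling and without CBX8 KO replicate 3, with an FDR of 0.033 in both. CDH13 (T-cadherin, which is held to the membrane by a lipid anchor) had nearly the same mean level in both conditions, 23.9 and 24.4 CPM, and CDH13-AS2 overlaps its exons on the other strand.

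Of the 18 non-clustered protocadherin members, which include the pseudogene PCDH8P1 and the antisense RNAs PCDH9-AS1 to PCDH9-AS4, 4 were tested. Of the 4 tested, PCDH1 rose while PCDH18 fell. Both belong to the delta protocadherins, which act in adhesion and cell movement during development. PCDH1 (ENSG00000156453.14, minus strand of chromosome 5, 141853090 to 141879246) had 11, 23 and 17 counts in CBX8 KO and 42, 46 and 42 counts upon re-expression. Every re-expression library lay above every KO library, and PCDH1 rose from 2.10 ± 0.68 to 5.06 ± 0.17 CPM (mean ± SD, n = 3), a 2.39-fold rise. Its log2 fold change was 1.26 (SE 0.25, edgeR FDR 0.00079).

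PCDH18 (ENSG00000189184.12, minus strand of chromosome 4, 137518918 to 137532494) had 410, 416 and 374 counts in CBX8 KO and 306, 304 and 301 counts upon re-expression. The re-expression libraries were nearly identical and all below the KO libraries. PCDH18 fell from 49.7 ± 2.0 to 35.5 ± 0.68 CPM (mean ± SD, n = 3), a log2 fold change of -0.48 (SE 0.08, edgeR FDR 4.8e-05). PCDH7 (log2 fold change 0.02, SE 0.34) and PCDH12 (log2 fold change 0.13, SE 0.32) had at most 25 counts in a library, and their edgeR FDR values were 0.98 and 0.84.

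**Figure D2:**
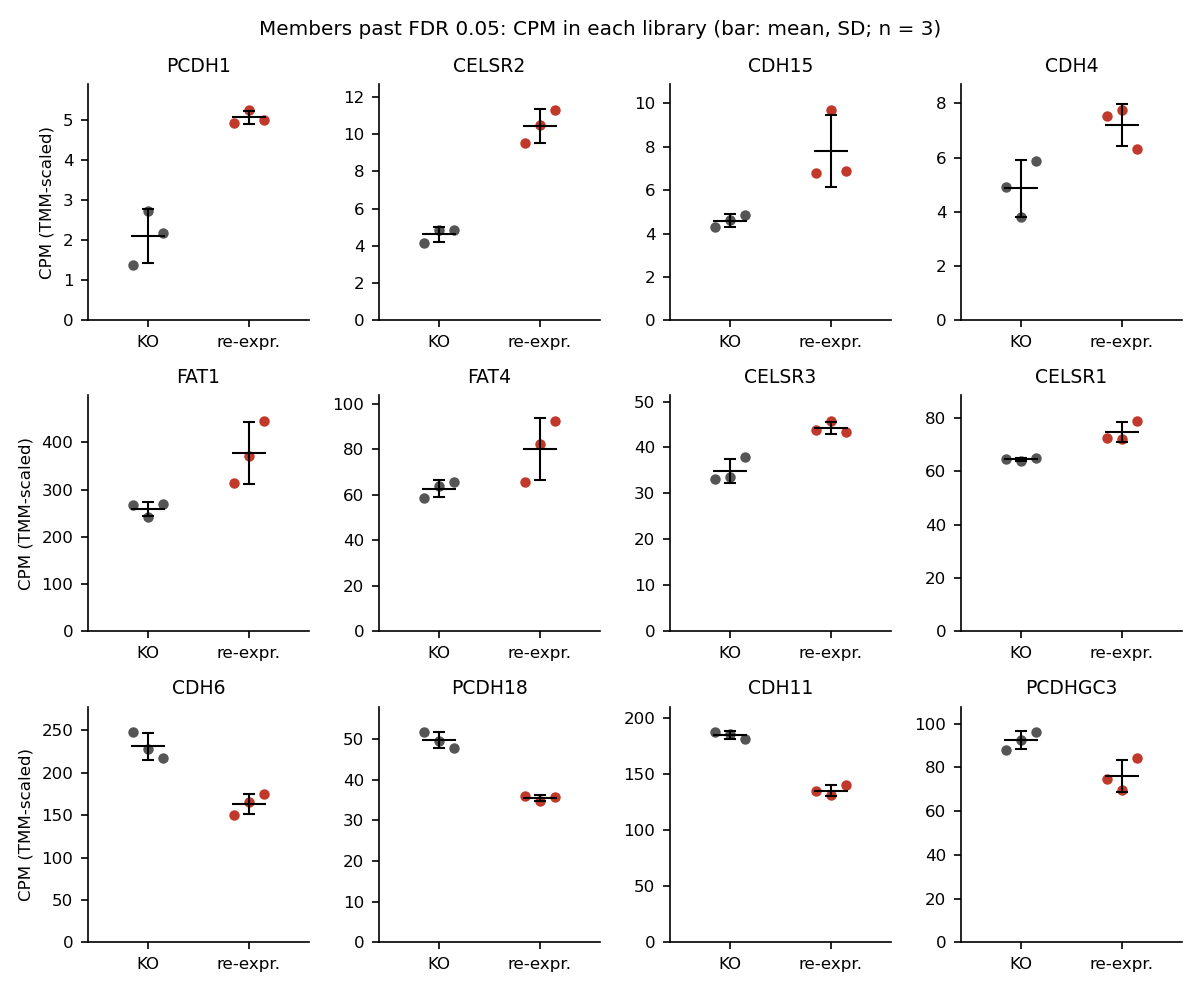
CPM of the 12 members past FDR 0.05 in each library (dots; y axes start at 0 and differ between panels), with the mean and SD of the 3 libraries of each condition. The conditions are separated in 11 panels, and in the FAT4 panel the lowest re-expression library sits at 65.7 CPM beside the highest KO library at 65.8 CPM.

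The clustered protocadherins fill 1 stretch of chromosome 5 on the plus strand, with the 16 alpha members from 140786136 to 141012347, the 16 beta members from 141051374 to 141249365 and the 24 gamma members from 141330514 to 141512977. The alpha array was almost without counts. Of its 16 members 11 had no count in any library, the whole array had 0 to 4 counts per library, and PCDHAC2 had the most, 7 counts over the 6 libraries. No alpha gene could be tested. Alpha genes share constant exons, and PCDHA4 and PCDHAC2, for example, each share 2869 exon bases with other genes on their strand. How the counting treated reads from such bases is not given in the sources used here, so the low alpha counts are uncertain. The beta array had 303 to 388 counts per library and 6 of 16 members tested, and the gamma array 844 to 952 counts and 8 of 24 tested.

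PCDHGC3 (ENSG00000240184.7, chromosome 5 from 141475947 to 141512977) dominated the gamma array and was the clustered protocadherin that changed. It is 1 of the C-type isoforms at the end of the array. PCDHGC3 had 698, 780 and 752 counts in CBX8 KO and 636, 608 and 706 counts upon re-expression. All re-expression libraries lay below all KO libraries after scaling, at 76.1 ± 7.4 against 92.3 ± 4.1 CPM (mean ± SD, n = 3). PCDHGC3 had a log2 fold change of -0.28 (SE 0.06, edgeR FDR 0.0039). Without WT CBX8 re-expression replicate 2 it was -0.22 with an FDR of 0.063. The other C-type members were rare, with 34 counts over all libraries for PCDHGC4, 33 for PCDHGC5 and none for PCDHAC1.

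PCDHGC3 held 79.8% to 82.0% of the gamma counts in the KO libraries and 72.0% to 77.2% upon re-expression. The other 23 gamma members together had 165 to 177 counts in CBX8 KO and 209 to 236 counts upon re-expression, or 20.4 to 22.3 and 24.9 to 27.0 CPM, so their sum and PCDHGC3 lay on opposite sides. None of the 7 of them that were tested passed the threshold, and their log2 fold changes ran from -0.23 for PCDHGA10 to 0.54 for PCDHGB3, with 6 of 7 above 0. The lowest edgeR FDR among them was 0.35, for PCDHGB7 (16, 16 and 11 counts against 15, 27 and 22). In each tested gamma gene, 44.5% to 49.5% of the 100-base windows of the transcript also occur in transcripts of other genes, and for PCDHGC3 this is 44.7%. The exon bases that each shares with other genes on its own strand number 2177. How the counting treated reads from such bases is not given in the sources used here, so the gamma counts are uncertain.

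None of the 6 tested beta genes passed the threshold. The beta genes are single-exon genes in most cases, and the most abundant were PCDHB16, PCDHB14, PCDHB13 and PCDHB2. PCDHB16 had 88, 85 and 93 counts in CBX8 KO and 113, 116 and 111 counts upon re-expression (log2 fold change 0.27, SE 0.12, edgeR FDR 0.16). PCDHB14 had 63, 63 and 67 counts and 85, 82 and 79 counts, with a log2 fold change of 0.26 (SE 0.14, edgeR FDR 0.25). For both, and for PCDHB2 (42 to 47 and 54 to 62 counts), the re-expression libraries all lay above the KO libraries. The same held for 14.4% of all tested genes. PCDHB13 had 41, 53 and 48 counts and 52, 44 and 53 counts, which overlap, and its log2 fold change was -0.02 (SE 0.18). PCDHB9 (-0.01, SE 0.27) and PCDHB10 (0.41, SE 0.35) had log2 fold changes within 2 standard errors of 0. The 6 beta genes shared 6.69% to 24.7% of their 100-base windows with other genes, in each case most with another beta gene, and the antisense RNA PCDHB1-AS1 overlaps 1797 of the 4098 exon bases of PCDHB2.

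**Figure D3:**
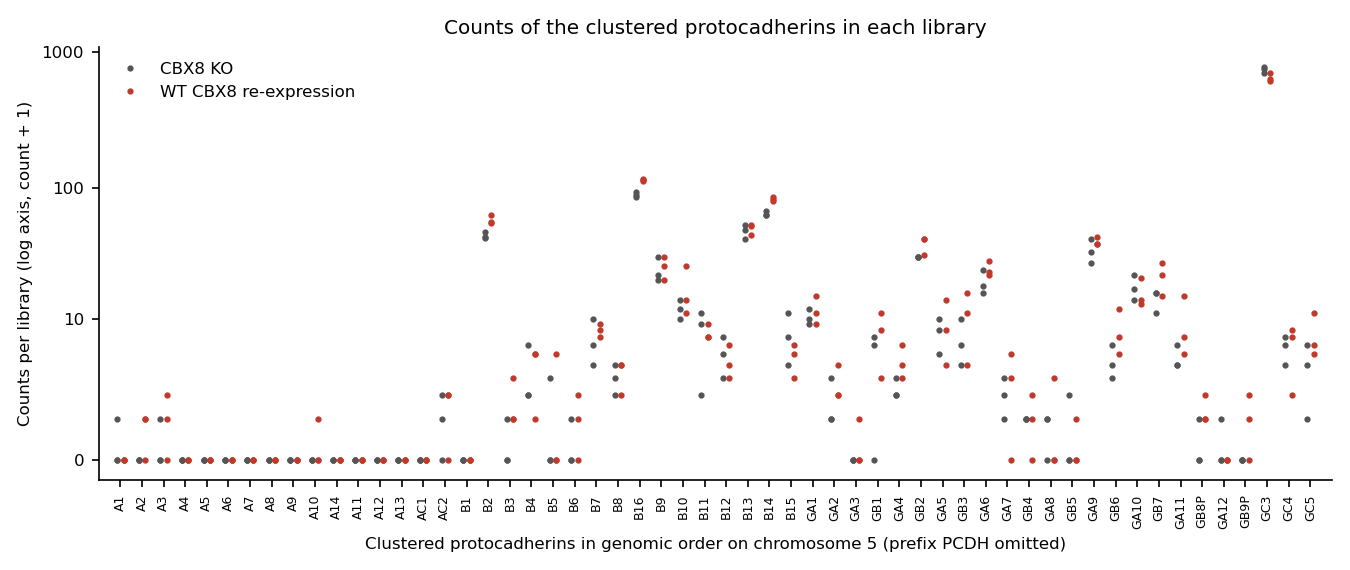
Counts in each library (y axis, log axis of count + 1) of the 56 clustered protocadherins in their order along chromosome 5, with 1 dot per library. The alpha genes sit at or near 0, several beta and gamma genes between 10 and 116 counts, and PCDHGC3 alone between 608 and 780.

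Promoter sequences were read from a reference set of RefSeq promoters (GRCh38.p14), which holds 84 of the 113 members. They are the 250 bases before the first start listed for each gene. FAT4, CDH6, CDH11, CDH15 and CELSR1 have no entry in this set. The 5 below were chosen as members that changed in either direction outside and inside the clusters, and show how unlike these windows are in CpG content. Each runs 5′ to 3′ on the strand of its gene, with CG dinucleotides in capitals. They are CELSR2 (chr1:109249289-109249538, plus strand) and FAT1 (chr4:186726697-186726946, minus strand), both of which rose, PCDH1 (chr5:141869628-141869877, minus strand), which rose, PCDH18 (chr4:137532495-137532744, minus strand), which fell, and PCDHGC3 (chr5:141475716-141475965, plus strand), which fell.
CELSR2: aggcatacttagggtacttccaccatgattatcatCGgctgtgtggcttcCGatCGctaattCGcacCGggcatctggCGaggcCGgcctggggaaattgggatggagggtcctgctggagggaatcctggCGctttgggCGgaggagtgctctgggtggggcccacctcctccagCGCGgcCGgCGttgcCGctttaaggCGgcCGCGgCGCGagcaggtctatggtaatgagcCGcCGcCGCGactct
FAT1: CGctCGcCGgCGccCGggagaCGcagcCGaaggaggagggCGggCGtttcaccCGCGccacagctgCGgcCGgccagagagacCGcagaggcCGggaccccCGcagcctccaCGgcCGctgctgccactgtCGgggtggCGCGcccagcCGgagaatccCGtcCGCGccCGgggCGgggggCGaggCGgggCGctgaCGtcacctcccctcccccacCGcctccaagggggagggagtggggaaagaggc
PCDH1: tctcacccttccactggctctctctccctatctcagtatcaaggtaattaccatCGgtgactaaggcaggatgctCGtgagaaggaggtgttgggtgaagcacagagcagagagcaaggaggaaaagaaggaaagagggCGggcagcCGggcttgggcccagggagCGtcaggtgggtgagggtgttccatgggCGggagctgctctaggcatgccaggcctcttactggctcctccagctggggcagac
PCDH18: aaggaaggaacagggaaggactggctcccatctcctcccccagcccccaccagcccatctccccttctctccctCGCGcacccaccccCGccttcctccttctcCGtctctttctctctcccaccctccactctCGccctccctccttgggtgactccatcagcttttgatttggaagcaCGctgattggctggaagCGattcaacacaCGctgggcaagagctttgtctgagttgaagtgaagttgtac
PCDHGC3: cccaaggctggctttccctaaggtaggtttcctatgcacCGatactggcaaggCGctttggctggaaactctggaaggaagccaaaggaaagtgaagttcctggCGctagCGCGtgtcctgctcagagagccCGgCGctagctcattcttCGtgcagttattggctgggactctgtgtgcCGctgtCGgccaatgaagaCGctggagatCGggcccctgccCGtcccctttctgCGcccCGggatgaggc

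The windows of PCDH1 and CDH4 lie inside the gene as GENCODE draws it, before a start downstream of its outermost one. Some other listed windows also lie inside the gene, among them those of PCDH12 and CDH2. The windows of FAT1 and PCDHGC3 reach a short way into the gene. The window of FAT1 holds 32 CG dinucleotides and that of CELSR2 holds 23, whereas PCDH18 has 8 and PCDH1 has 6. The median over the 27305 genes of the table is 11. CELSR3, which rose, has 25 and CDH4, which rose, has 6. The listed windows of members that rose were thus both CG-rich and CG-poor. The CG-poor ones, of PCDH1 and CDH4, are those that lie inside the gene. Windows at the outermost start of these genes were not examined. Among the 14 tested clustered protocadherins PCDHGC3 has the most, 15, and the other 13 have between 3 and 10. CGCT, the core of a conserved element known from clustered protocadherin promoters, was searched on both strands and was present in 45 of the 47 clustered windows listed (95.7%) and in 31 of the 37 windows of other members (83.8%), against 64.3% of all windows of this length. CACCTG, the E-box bound by SNAI and ZEB repressors, was present in 4 of the 47 clustered windows (8.51%) and 6 of the 37 others (16.2%), against 17.5% of all windows. Such a match is only a match of letters.

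Per kilobase of annotated exon, 5 members stood above the rest in both conditions. In CBX8 KO these were CDH6 at 18.6 ± 1.3, PCDHGC3 at 17.0 ± 0.75, FAT1 at 16.04 ± 0.93, CDH2 at 15.0 ± 0.16 and CDH11 at 13.9 ± 0.26 CPM per kilobase (mean ± SD, n = 3). Libraries of neighbours in this order overlapped from CDH6 down to CDH2, whereas CDH11 lay below CDH2 and above PCDH18, which was next at 7.43 ± 0.29. Upon re-expression the order became FAT1 at 23.3 ± 4.1, CDH2 at 15.9 ± 0.42, PCDHGC3 at 14.01 ± 1.4, CDH6 at 13.1 ± 0.98 and CDH11 at 10.2 ± 0.34 CPM per kilobase. By this length the FAT1 libraries then lay above those of CDH2, and only PCDHGC3 and CDH6 overlapped among these 5. The order depends on the length used. Per kilobase of exon not shared with another annotated gene, PCDHGC3 was at 23.39 and FAT1 at 23.34 upon re-expression. Over all 32 members, 23 of the 31 neighbouring pairs overlapped in CBX8 KO and 19 upon re-expression, so most of the order below these genes is not resolved. In CBX8 KO, PCDHGC3 was at 28.4 per unshared kilobase, CDH6 at 20.6 and FAT1 at 16.04. The annotated exons of CDH2 hold 8583 bases, whereas the transcript used for its 100-base windows has 4016. The spread between libraries does not measure the choice of length, so the order among the 5 is not resolved either.

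**Figure D4:**
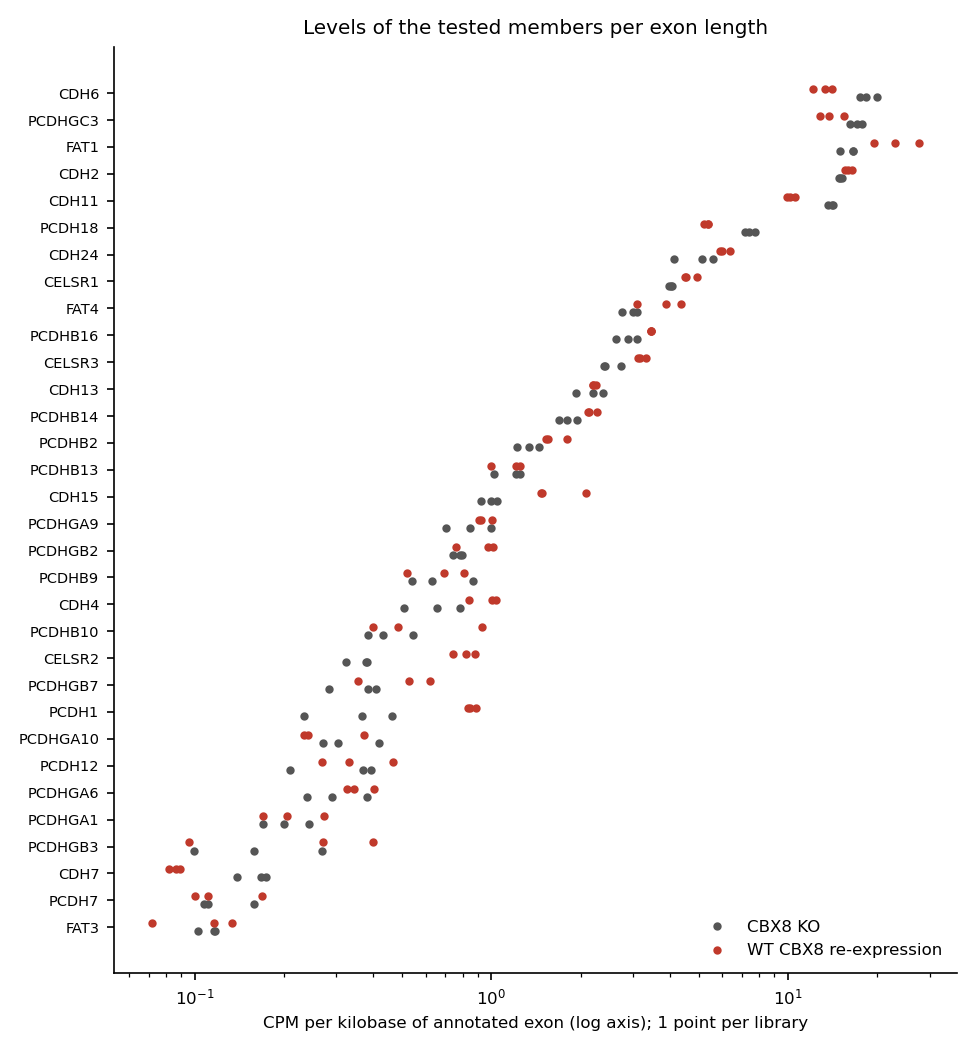
CPM per kilobase of annotated exon (x axis, log axis) of the 32 tested members, ordered by their mean in CBX8 KO, with 1 dot per library. CDH6, PCDHGC3, FAT1, CDH2 and CDH11 lie together at the top, between 13.7 and 19.96 in the KO libraries, and the FAT1 libraries upon re-expression lie between 19.5 and 27.6.

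The remaining 81 members did not pass the filter, 34 without a count and 47 with 1 to 49 counts over the 6 libraries. All 7 desmosomal cadherins were among those without a count, which allows up to 3 counts or 0.342 to 0.383 CPM per library. Of the 81 untested members 20 had at least 10 counts. These were 6 beta and 9 gamma genes, from PCDHGA2 (13 counts) to PCDHGA5 (49 counts), and PCDH10 (26), FAT2 (21), CDH10 (19), CDH23 (19) and CDH8 (16). CDH23 is known as a cadherin of hair cells in the ear. CDH5, the cadherin of endothelium, had 1 count.

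Partner genes of cadherins were taken from 7 lists of 99 symbols, of which 94 were in the table and 84 were tested. Of these 84, 8 were higher and 5 lower upon re-expression, and their median log2 fold change was 0.02. Over all tested genes 12.9% were called, 6.23% higher and 6.63% lower, and the 13 calls among 84 partner genes are near that rate. The catenins and other armadillo proteins, which hold cadherins to the cytoskeleton, had 8 tested genes and 1 call. PKP2, a plakophilin of the desmosomal plaque, had 16, 19 and 10 counts in CBX8 KO and 35, 35 and 45 counts upon re-expression. PKP2 had a log2 fold change of 1.26 (SE 0.26, edgeR FDR 0.0015). The abundant catenins CTNNA1 (log2 fold change 0.05), CTNNB1 (-0.0046) and CTNND1 (0.14) did not pass the threshold, with edgeR FDR values of 0.51, 0.97 and 0.073.

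Among 11 tested junction linkers and nectins 1 was higher and 1 lower, where 6.23% of all tested genes were higher and 6.63% lower. VCL (vinculin, which strengthens junctions under tension) rose from 411 ± 15 to 484 ± 12 CPM (mean ± SD, n = 3), a log2 fold change of 0.24 (edgeR FDR 0.0012). AFDN (afadin, which ties nectins to actin) fell from 82.0 ± 1.5 to 68.9 ± 3.5 CPM (mean ± SD, n = 3), a log2 fold change of -0.25 (edgeR FDR 0.0045, and 0.054 without WT CBX8 re-expression replicate 2). Of 11 sheddase and gamma-secretase genes, which cut cadherins, APH1B rose (log2 fold change 0.58, edgeR FDR 0.0010), and ADAM10, the main sheddase of N-cadherin, had a log2 fold change of 0.02 (FDR 0.87).

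The repressors of E-cadherin had 8 tested genes, 2 of them lower and none higher, where 6.63% of all tested genes were lower, with a median log2 fold change of -0.13. SNAI2 (Slug) had 792, 763 and 646 counts in CBX8 KO and 598, 557 and 559 counts upon re-expression, with every re-expression library below the KO libraries. SNAI2 had a log2 fold change of -0.45 (SE 0.07, edgeR FDR 2.5e-05). ZEB1 had a log2 fold change of -0.18 (SE 0.06, edgeR FDR 0.047), overlapping groups, and no call in 10 of 16 alternatives, with FDR between 0.00955 and 0.23. Of the 17 factors that act on clustered protocadherin promoters, 1 was called, where 12.9% of all tested genes were called. DNMT3B, a DNA methyltransferase of these promoters, rose from 17.9 ± 2.3 to 26.2 ± 1.4 CPM (mean ± SD, n = 3), a log2 fold change of 0.55 (edgeR FDR 0.00062).

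Of 15 tested cytoplasmic partners of protocadherins, 3 were higher and 1 lower, where 6.23% of all tested genes were higher and 6.63% lower. The kinase FYN had 9, 19 and 12 counts in CBX8 KO and 34, 32 and 26 counts upon re-expression, a log2 fold change of 1.11 (SE 0.29, edgeR FDR 0.0096, and 0.064 without CBX8 KO replicate 1). The focal adhesion kinase PTK2 (0.18), the WAVE complex subunit ABI2 (0.21) and PDCD10 (-0.19) had small log2 fold changes, with edgeR FDR values of 0.017, 0.016 and 0.032. Each of these 3 calls was lost in at least 2 of 16 alternatives, with FDR values up to 0.094, 0.16 and 0.14.

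The planar polarity partners of FAT, DCHS and CELSR proteins had 14 tested genes, 1 higher and 1 lower, both of them cytoplasmic PRICKLE proteins. Over all tested genes 6.23% were higher and 6.63% lower. PRICKLE1 had 136, 140 and 113 counts in CBX8 KO and 82, 92 and 97 counts upon re-expression, which did not overlap. PRICKLE1 had a log2 fold change of -0.61 (SE 0.12, edgeR FDR 0.00098). PRICKLE2 went from 11.2 ± 1.5 to 15.2 ± 2.5 CPM (mean ± SD, n = 3), a log2 fold change of 0.44 (SE 0.14, edgeR FDR 0.029). The PRICKLE2 groups overlapped after scaling, and its call was lost in 5 of 16 alternatives, with FDR between 0.010 and 0.17. The membrane protein VANGL1 had a log2 fold change of -0.05 (edgeR FDR 0.62), so the rise of the 3 CELSR genes stood beside partner genes that moved in both directions or did not pass the threshold.

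**Figure D5:**
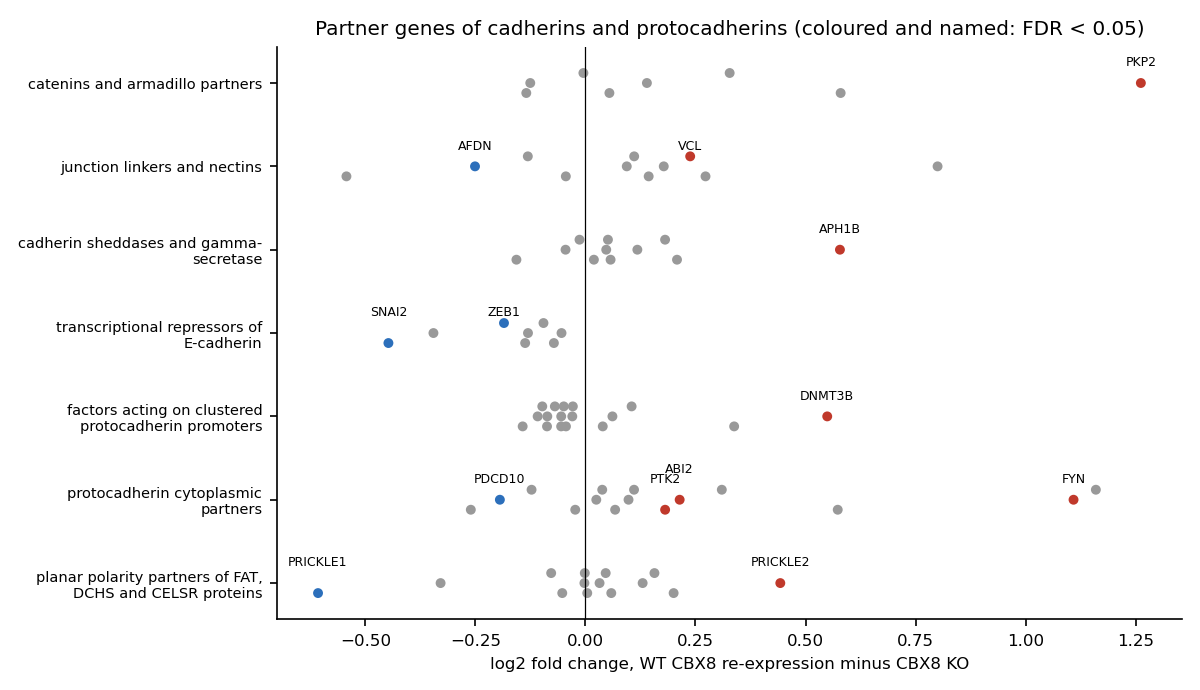
The log2 fold change (x axis) of each tested partner gene, 1 row per list and 1 dot per gene, with genes past FDR 0.05 coloured and named. Of the 84 genes 13 are coloured, 8 to the right of 0 and 5 to the left, and both called E-cadherin repressors, SNAI2 and ZEB1, lie to the left.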

How the data were processed

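RNA-seq of 6 T98G libraries (poly(A) RNA, 100 bp paired-end reads) was analysed, 3 CBX8 KO and 3 WT CBX8 re-expression, assigned by their titles. The values the authors deposited are counts for each gene symbol, not normalized, made after trimming with Trimmomatic and alignment to hg38 with HISAT2. How reads were counted, with which annotation and strand setting, and the versions are not given in the sources used here. From the counts, genes were kept by filterByExpr and scaled by TMM in edgeR 4.0.16 (R 4.3.3), and the conditions were compared with glmQLFit and glmQLFTest at their defaults over all 14461 genes, with Benjamini-Hochberg adjustment and FDR < 0.05. Standard errors are |log2 fold change|/√F from that test. CPM uses TMM-scaled library sizes, and levels per kilobase divide CPM by the merged exon length in GENCODE release 44, to which all 113 symbols matched by name. Intervals and limits from counts cover counting error only.

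Every tested member was eligible to be named, with those past FDR < 0.05 described in full, together with CDH1, CDH2, CDH11 and the 5 members highest per kilobase. From the 7 partner lists (catenins and armadillo partners, junction linkers and nectins, sheddases and gamma-secretase, repressors of E-cadherin, factors acting on clustered protocadherin promoters, protocadherin cytoplasmic partners, planar polarity partners), called genes and up to 3 of the most abundant others were eligible. The members and lists were chosen with earlier results of these data known. Counts of libraries of 1 condition differed by more than sampling noise (chi-square per degree of freedom 2.06 to 3.09), so all 6 were kept. The test was checked on simulated data. Alternatives were other scalings, filters, tests and thresholds, DESeq2 1.42.0, limma 3.58.1, a replicate block, and the omission of every library in turn.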

Additional observations from a re-analysis of the deposited data

How the results depend on the processing

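Of the 12 called members, CELSR2, CELSR3, FAT1, PCDH1, PCDH18, CDH6 and CDH11 stayed past FDR 0.05 in all 16 alternatives run per gene, and no called member changed sign in any of them. The other 5 lost their call in 13 fits in all, for causes that were not tested. CELSR1, FAT4 and CDH4 lost it with DESeq2. The minimum 1.5-fold change, which lowers counts by construction, left 0 clustered protocadherins lower, 0 other members lower and 3 higher, and DESeq2 left 5 other members higher. With 1 library left out, clustered members called lower ranged from 0 to 1, other members lower stayed at 3, and other members higher ranged from 6 to 9. The clustered call, PCDHGC3, was lost without WT CBX8 re-expression replicate 2.

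Partner genes called lower numbered 5 and became 3 with library size only, 3 with DESeq2, 3 at FDR < 0.01, 1 with the minimum 1.5-fold change and 3 with the replicate block, and 2 to 7 with 1 library left out, the fewest without WT CBX8 re-expression replicate 2. Partner genes called higher numbered 8 and became 15 with library size only, 5 at FDR < 0.01 and 2 with the minimum 1.5-fold change, and ranged from 6 to 9 with 1 library left out.

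Reversals of sign concern genes that did not pass the threshold. With library size only they were PCDHB9 (0.045), PCDHB13 (0.038), CTNNB1 (0.050), APH1A (0.042), WASF2 (0.032), VANGL1 (0.0028), DVL3 (0.053) and LIX1L (0.054), and with upper quartile scaling PCDHB9 (0.0023), CTNNB1 (0.0079), DVL3 (0.010) and LIX1L (0.011). With 1 library left out, log2 fold changes ranged from -0.25 to 0.21 for PCDH7, -0.16 to 0.20 for PCDHB9, -0.035 to 0.63 for PCDHB10, -0.10 to 0.080 for PCDHB13, -0.12 to 0.23 for PCDHGA1, -0.11 to 0.30 for PCDH12, -0.25 to 0.15 for FAT3 and -0.045 to 0.10 for CDH13. Among partner genes they ranged from -0.038 to 0.016 for CTNNB1, -0.018 to 0.062 for ADAM10, -0.045 to 0.022 for APH1A, -0.068 to 0.020 for WASF2, -0.048 to 0.039 for DVL3 and -0.057 to 0.052 for LIX1L.

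With the replicate number as a block, 7 members were higher and 4 lower, with CDH4 no longer called. Deviations of same-numbered libraries from their condition means were negatively correlated (r = -0.15, -0.20 and -0.14 over 9768 genes), and the numbers are treated as names only. In the fits across all genes, 1860 genes were called with all libraries, 428 with the minimum 1.5-fold change, 1058 at FDR < 0.01, 1177 with DESeq2 and 1228 without WT CBX8 re-expression replicate 2. Of the clustered protocadherins, 30 had counts but too few to be tested, at most 49 over all libraries.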

Other observations

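Some members below the filter were counted in 1 condition and nearly absent from the other, and were picked out here after their values were seen. CDH8, a type II cadherin of the nervous system, had 0, 0 and 1 counts in CBX8 KO and 4, 9 and 2 counts upon re-expression. With no filter on low counts, over 28010 genes, its edgeR adjusted p was 0.025, and it was the single untested member called in that fit. CDH20 had no count in CBX8 KO and 2, 2 and 1 counts upon re-expression, which is at or under the limit of 3 counts in every library.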
